A study of Mus musculus with 12 samples.

Results

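Lgr4, Lgr5 and Lgr6, the receptors for R-spondins, the E3 ubiquitin ligases Rnf43 and Znrf3, and Cd34 and Cd200, surface proteins of hair follicle bulge cells, were followed through 12 mouse microarrays of sorted epidermal cells. They were chosen by name, with earlier results of these data known, as the probe sets whose only gene symbol is one of these 7 genes. Each gene was read by 1 probe set (7 of 35512 probe sets, 7 of 19938 gene symbols), and each probe set had a value on all 12 arrays.

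The series holds 3 arrays in each of 4 groups, all of cells from dorsal skin without treatment. Clock-positive bulge and clock-negative bulge cells came from mice aged 18 to 19 days with the Per1-Venus allele, which makes Per1 activity visible as fluorescence, with about 20 mice pooled per sample. Both were gated on bright alpha6 integrin and on CD34 and then on bright or dim Venus. The labels of the dim cells also name the high Venus gate, so the groups follow the titles and the series design. Basal cells of the interfollicular epidermis (IFE) came from wild-type mice and from mice with an epidermal Bmal1 knockout (KO), all 1 year old, with 5 mice per sample. The driver of the deletion, the sort gate of the IFE cells and the time of day of collection are not given in the sources used here. Intensities are given on the log2 scale; the medians of the bulge arrays ran from 6.82 to 7.01 and those of the IFE arrays from 7.75 to 7.80. The 2 sets appear to have been processed apart, so no level of one was tested against the other. Nothing states that a pool was split or shared, and the p-values measure the spread between these pooled samples. In bulk samples, fewer cells of a type and less RNA per cell cannot be told apart.

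Arntl, the symbol of Bmal1, was read at 9.27, 9.47 and 9.34 in the wild-type arrays and at 9.85, 9.60 and 9.55 in the KO arrays. Where its probe set lies relative to the deletion was not analysed here, so it checks no label. Nr1d1, a clock repressor driven by BMAL1, fell by 3.98 ± 0.12 (SE) in the KO (limma adjusted p = 1.08e-05). Per1, whose activity the reporter follows, rose by 0.51 ± 0.07 in clock-positive bulge cells (limma adjusted p = 1.95e-04). Of the other clock genes looked at there, Arntl rose by 0.16 (adjusted p = 0.0470), while Nr1d1 (0.08, 0.298) and Per3 (−0.06, 0.390) were not called. Bulge markers were bright in the bulge set. Lhx2 stood at the 96.4th percentile of genes by mean intensity there and at the 47.5th in the IFE set, and Sox9 at the 95.6th and the 62.1st. Krt15 and Postn were at or above the 98.0th percentile in both sets. The keratins Krt5 and Krt14 of basal cells, and Krt1 and Krt10 of suprabasal cells, were at or above the 99.6th percentile in both sets.

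R-spondins are secreted proteins that raise the response of a cell to Wnt. They bind LGR4, LGR5 or LGR6 on the surface together with RNF43 or ZNRF3, ligases that otherwise mark Frizzled receptors for removal, and so leave more Frizzled at the membrane. In mouse skin, Lgr5 marks cells of the lower bulge and hair germ, and Lgr6 marks cells of the upper follicle and the interfollicular epidermis. CD34 is a sialomucin of mouse bulge cells that is also found on endothelium and blood progenitors. CD200 is an immunoglobulin family protein that signals to a receptor on myeloid cells and is used to sort bulge cells.

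The promoters of the 4 genes that were higher in clock-positive bulge cells and stand in the RefSeq promoter table (assembly GRCm38.p6, 250 bases before to 50 after the gene's start) are shown because these are the genes of the group that were called. The table holds 6 promoters for 5 of the 7 genes. All bases are in lower case except matches to CCAAT (the CCAAT box) and GGGCGG (the GC box), on either strand, which are in capitals. Lgr5 and Znrf3 are named only.
Cd34, chr1:194938571-194938870 (+ strand): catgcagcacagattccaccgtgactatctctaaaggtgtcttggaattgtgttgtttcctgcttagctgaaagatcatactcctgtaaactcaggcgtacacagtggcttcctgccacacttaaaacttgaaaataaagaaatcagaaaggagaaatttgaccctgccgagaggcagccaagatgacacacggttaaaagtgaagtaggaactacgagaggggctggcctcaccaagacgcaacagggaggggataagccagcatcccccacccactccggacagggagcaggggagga
Cd200, chr16:45409004-45409303 (- strand): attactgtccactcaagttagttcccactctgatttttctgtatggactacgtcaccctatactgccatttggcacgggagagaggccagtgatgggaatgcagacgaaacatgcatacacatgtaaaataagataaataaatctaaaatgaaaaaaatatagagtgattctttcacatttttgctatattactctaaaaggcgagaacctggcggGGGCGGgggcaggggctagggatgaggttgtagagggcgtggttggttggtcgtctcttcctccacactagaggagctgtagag
Lgr4, chr2:109917397-109917696 (+ strand): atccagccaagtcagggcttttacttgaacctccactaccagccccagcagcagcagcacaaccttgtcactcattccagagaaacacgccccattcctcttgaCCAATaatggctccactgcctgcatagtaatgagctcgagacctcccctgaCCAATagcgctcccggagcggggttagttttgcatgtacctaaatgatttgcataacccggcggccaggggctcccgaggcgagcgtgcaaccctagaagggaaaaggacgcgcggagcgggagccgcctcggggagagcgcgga
Lgr6, chr1:135105227-135105526 (- strand): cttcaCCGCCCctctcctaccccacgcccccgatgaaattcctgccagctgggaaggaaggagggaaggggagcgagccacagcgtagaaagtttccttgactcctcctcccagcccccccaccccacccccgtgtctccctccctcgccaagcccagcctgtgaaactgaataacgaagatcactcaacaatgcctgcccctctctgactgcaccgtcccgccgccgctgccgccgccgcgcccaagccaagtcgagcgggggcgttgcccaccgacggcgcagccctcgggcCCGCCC
CACGTG, the E-box bound by the clock activators, and CTTTGAT, a TCF/LEF sequence, were searched on both strands and matched in 0 of the 6 promoters. Of all 32851 promoters in the table, 7.15% held the E-box and 3.73% the TCF/LEF letters. The CCAAT box matched in 1 of the 6, that of Lgr4 (2 matches), against 37.4% of all promoters. The GC box matched in 2 of the 6, those of Cd200 (1 match) and Lgr6 (2 matches), against 35.7% of all. The CCAAT and GC boxes were added to the search after the data were seen, and none of the 6 promoters held both. The GC content was 44.3% and 46.7% in the promoters of Rnf43, 45% in Cd200, 50% in Cd34, 58.3% in Lgr4 and 67.7% in Lgr6, against a median of 52.7% over the table.

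The bulge comparison sets bulge cells sorted for bright Venus against bulge cells sorted for dim Venus. The receptors and both surface markers were higher in clock-positive cells: Cd34 and Lgr5 by more than 2.5-fold, Cd200 and Lgr4 by under 2-fold, and Lgr6 least. The ligases Rnf43 and Znrf3 did not pass the test. In limma, 5 of the 7 genes passed an adjusted p under 0.05, all 5 higher. Of all 13956 genes tested, 45.2% passed in that direction and 18.3% in the other (6311 and 2555 genes; 8928 and 1355 after median centring), so a call was common here and the sizes tell more than the count. The median change over the 7 genes was 0.775 on the log2 scale, against 0.147 over all genes tested. The 7 genes were chosen with earlier results of these data known, so this gap is no independent evidence. Changes ran higher among brighter genes, and these 7 lay between the 73.9th and 95.6th percentiles of genes by mean intensity in the bulge set. The median over all genes was 0.00669 with no filter on dim genes and 0.213 with the lowest 50% left out. In that brighter set 5947 of 9968 genes were called higher and 740 lower, a higher reference for these 7.

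Cd34 was read at 10.98, 10.95 and 10.98 in clock-positive arrays 1 to 3 and at 9.55, 9.44 and 9.58 in clock-negative arrays 1 to 3. The groups lay far apart and the clock-positive arrays were nearly alike. The change was 1.45 ± 0.06 (SE, n = 3 per group, limma adjusted p = 2.80e-07), or 2.73-fold with a 95% confidence interval from 2.47 to 3.01. By size it was number 22 among the rises of the 13956 genes. Both groups had been gated on CD34 protein. Itga6, which encodes the integrin chain used in that gate, was at −0.15 and was not called (limma adjusted p = 0.0766). After quantile normalization and cyclic loess Itga6 was called lower.

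Lgr5 was read at 10.06, 10.04 and 10.13 in clock-positive arrays and at 8.80, 8.67 and 8.74 in clock-negative arrays. Every clock-positive array lay above every clock-negative one by more than the spread within either group. The change was 1.34 ± 0.06 (limma adjusted p = 4.12e-07), a fold of 2.53 (2.29 to 2.80), and number 29 by size.

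Lgr4, the more widely expressed receptor of the family, was read at 9.07, 8.90 and 8.92 in clock-positive arrays and at 8.22, 8.02 and 8.32 in clock-negative arrays. The groups did not overlap. The change was 0.78 ± 0.09 (limma adjusted p = 6.00e-05), or 1.71-fold, with an interval from 0.59 to 0.96 on the log2 scale. Lgr6 was read at 8.70, 8.59 and 8.67 against 8.21, 8.25 and 8.14, again without overlap. It rose by 0.45 ± 0.06 (limma adjusted p = 2.94e-04), or 1.37-fold (1.24 to 1.51), and stood at number 1512 by size, well back from the other receptors.

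Cd200 was read at 9.63, 9.61 and 9.58 in clock-positive arrays and at 8.80, 8.48 and 8.79 in clock-negative arrays. The groups did not overlap, and clock-negative array 2 lay lowest. The change was 0.92 ± 0.09 (limma adjusted p = 2.13e-05), or 1.89-fold (1.65 to 2.15), number 173 by size.

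The ligases gave another picture. Rnf43 was read at 8.37, 8.52 and 8.45 in clock-positive arrays and at 8.63, 8.26 and 8.49 in clock-negative arrays, and the groups overlapped throughout. The change was −0.02 ± 0.09 (limma adjusted p = 0.883), with a 95% interval from −0.22 to 0.19. Znrf3 was read at 9.32, 9.21 and 9.26 against 9.17, 9.16 and 9.16. These groups did not overlap, but the change was only 0.10 ± 0.06 (limma adjusted p = 0.167; interval from −0.03 to 0.23). Groups without overlap and with the clock-positive arrays higher were found for 50.1% of all genes tested. Both intervals leave out the sizes seen for Lgr4, Lgr5, Cd34 and Cd200.

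**Figure D1:**
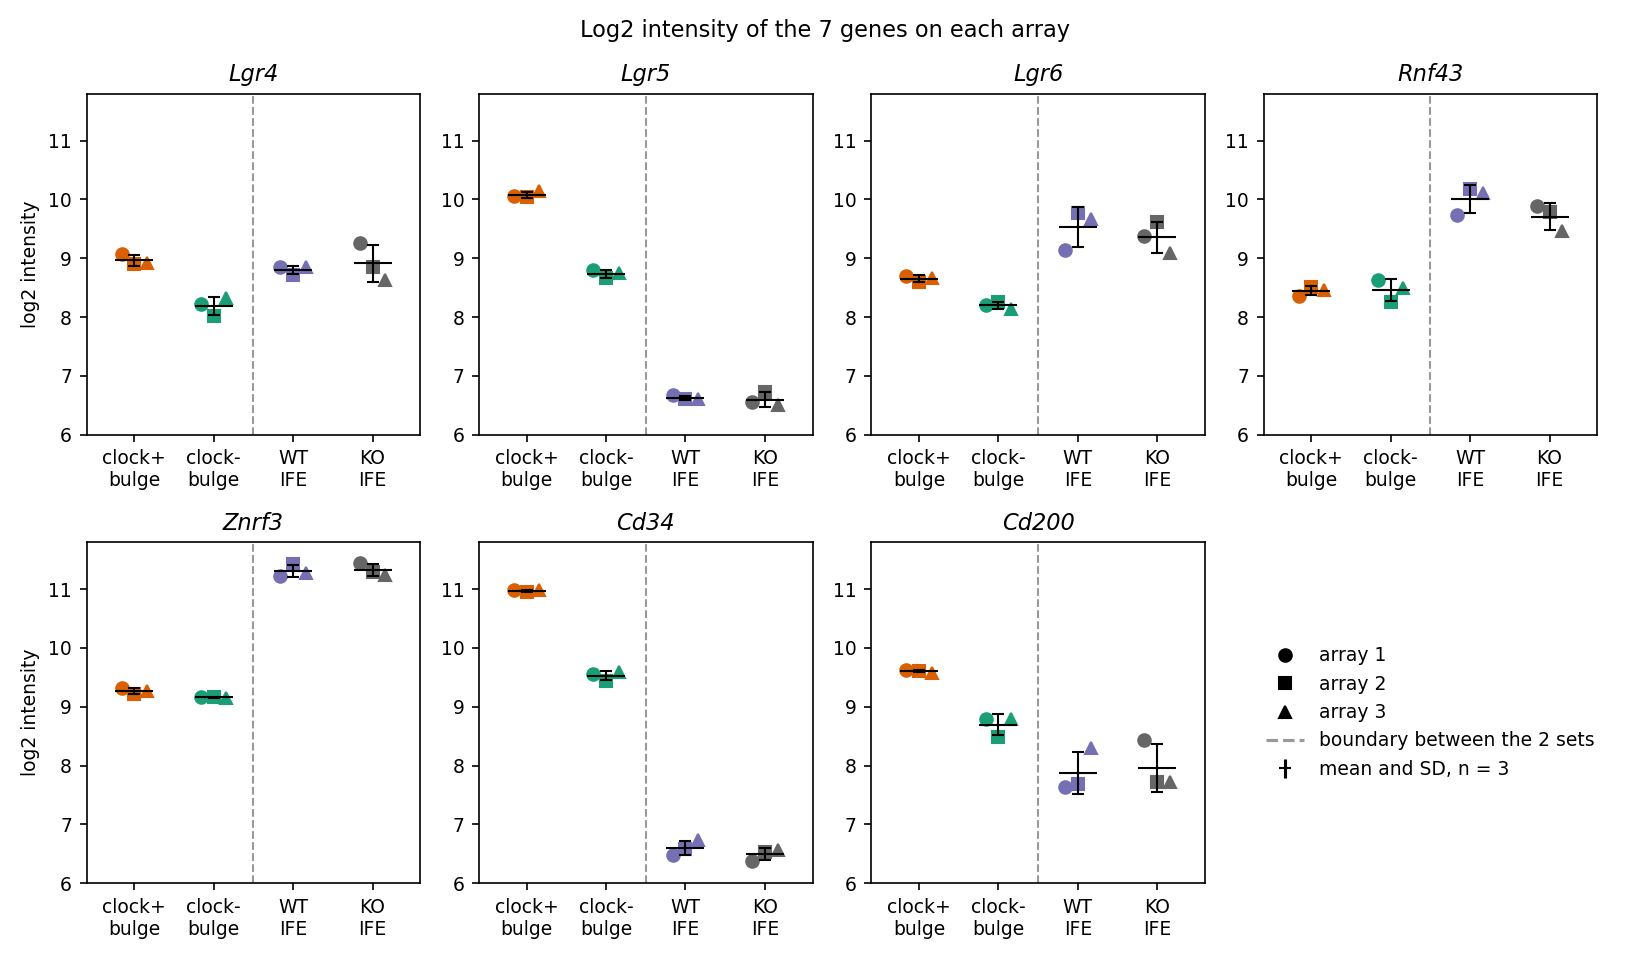
Log2 intensity (vertical axis) of each of the 7 genes by group (horizontal axis), with 1 symbol per array and bars for the mean and SD of 3 arrays. In the bulge set the groups of Lgr4, Lgr5, Lgr6, Cd34 and Cd200 are separate while those of Rnf43 overlap; in the IFE set wild-type and KO arrays overlap for all 7 genes.

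The sizes of the rises were then set against each other. A difference between the changes of genes on the same arrays is not moved by a shift of whole arrays, and 6 such pairs were compared after the data were seen. The rise of Lgr5 exceeded that of Lgr4 by 0.56 ± 0.09 and that of Lgr6 by 0.89 ± 0.07 on the log2 scale, and the rise of Lgr4 exceeded that of Lgr6 by 0.32 ± 0.13. Cd34 exceeded Cd200 by 0.53 ± 0.06 and Lgr5 by 0.11 ± 0.04. In each of these 5 pairs the 3 clock-positive arrays lay apart from the 3 clock-negative ones. The two-sided exact permutation p was 0.1 for each, the smallest that 3 against 3 can give, and 0.12 adjusted over the 6 pairs. Znrf3 and Rnf43 differed by 0.12 ± 0.13 (exact permutation p = 0.4), with overlap.

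Other scalings of the arrays moved the changes, and only median centring moved every gene alike. After median centring the median change of all genes was 0.289, after quantile normalization 0.069 and after cyclic loess 0.0351. Quantile normalization and cyclic loess moved genes by different amounts. With quantile normalization Lgr6 went from 0.45 to 0.29 and Podxl from 0.01 to 0.19. The shift of the median therefore does not give the shift of a member. Cd34 lay between 1.26 and 1.59 over the 3 scalings, Lgr5 between 1.12 and 1.48, Cd200 between 0.69 and 1.06, Lgr4 between 0.57 and 0.92 and Lgr6 between 0.26 and 0.59, and each was called higher under all of them. The ligases changed sign with the scaling. Znrf3 was called higher after median centring (0.24, limma adjusted p = 0.00813) and was at −0.09 and −0.13, not called, after quantile normalization and cyclic loess. Rnf43 was at 0.13, −0.18 and −0.21 in the same order and was not called in any.

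**Figure D2:**
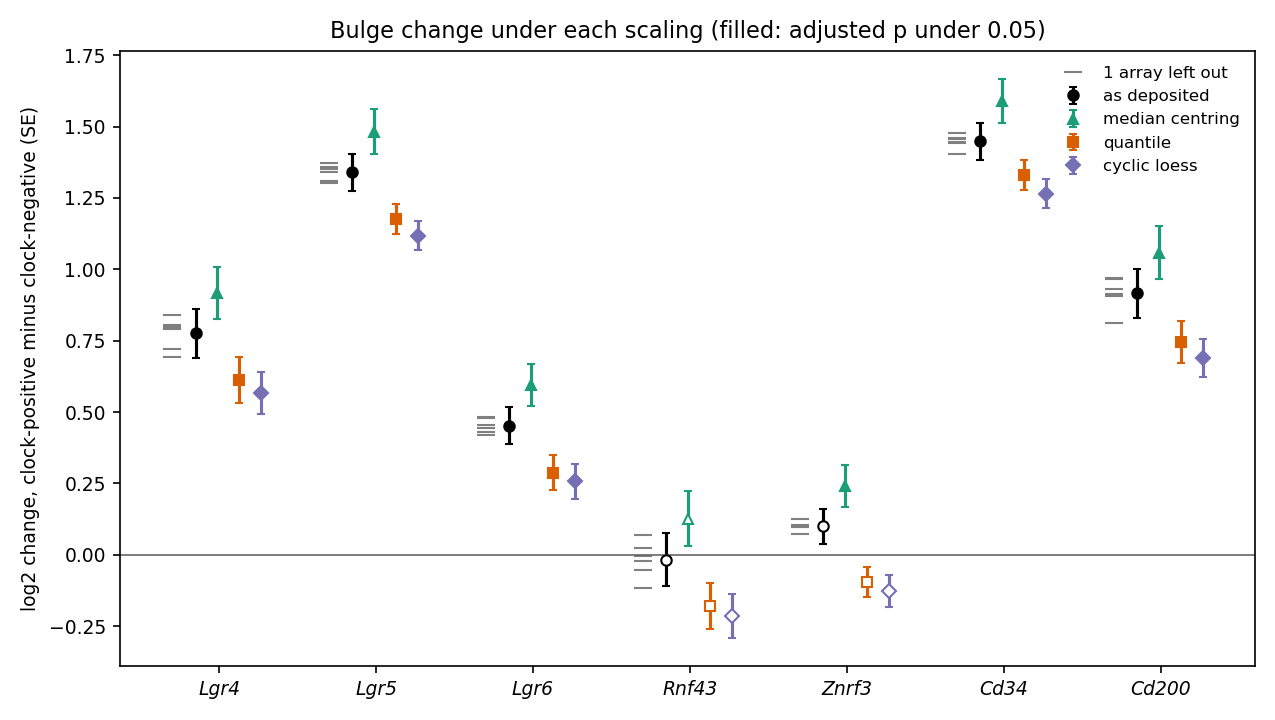
Log2 change of each gene, clock-positive minus clock-negative bulge (vertical axis), for the values as deposited and 3 other scalings (points with SE, filled where the adjusted p was under 0.05) and with 1 array left out at a time (grey bars). Lgr4, Lgr5, Lgr6, Cd34 and Cd200 stay above 0 and filled; Rnf43 and Znrf3 cross 0.

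Genes around the receptors were described from lists written with earlier results of these data known. Of 26 R-spondins and genes of the Wnt receptor complex, 16 were higher in clock-positive cells, 2 were lower and 8 were not called, with a median change of 0.245. Over all genes tested 45.2% were higher and 18.3% lower, with a median of 0.147. Of the 10 Frizzled receptors 8 were called higher, and Fzd6 (0.10, limma adjusted p = 0.175) and Fzd10 (0.01, 0.851) were not. Fzd2 rose by 1.29 ± 0.06, Fzd3 by 1.28 ± 0.08, Fzd7 by 0.89 ± 0.06 and Fzd1 by 0.75 ± 0.07 (limma adjusted p from 3.82e-07 to 2.19e-05). The co-receptors Lrp6 and Lrp5 rose by 0.41 and 0.30, and Lrp5 was no longer called after quantile normalization and cyclic loess. Among the ligands, Rspo2 and Rspo4 were the 2 genes called lower, by −0.27 and −0.25, and Rspo1 (0.14) and Rspo3 (−0.16) were not called. Under each of the other scalings from 13 to 18 genes of the list were called higher. The calls of Rspo2 and Rspo4 were lost under all 3, and after cyclic loess Wls and Ror1 were lower instead.

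Targets and feedback genes of Wnt signalling were described in the same way. Of 14 tested, 6 were higher, 2 lower and 6 not called, near the shares over all genes tested (45.2% higher and 18.3% lower). Their median of 0.0687 lay under the 0.147 of all genes. Lef1, a transcription factor of the pathway, rose by 0.66 ± 0.07, Nkd1, a feedback inhibitor, by 0.64 ± 0.07 and Myc by 0.35 ± 0.07 (limma adjusted p = 6.17e-05, 5.26e-05 and 0.00147), while Tnfrsf19, also known as Troy, fell by 0.35 ± 0.06 (adjusted p = 8.24e-04). Axin2, a widely used target gene, was at 0.04 and not called (adjusted p = 0.532); median centring called it higher. Cyclic loess left 3 higher and 4 lower, with Axin2 now lower, and ended the call of Myc (adjusted p = 0.0628). Rnf43 and Znrf3 are themselves known as Wnt targets in other tissues.

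Other bulge genes moved with Cd34, Lgr5 and Cd200. Of 21 tested, 19 were higher, 1 was lower (Aldh1a3) and 1 was not called (Wif1), with a median of 0.834. Angptl7, a secreted angiopoietin-like protein, led at 2.23 ± 0.06, followed by the keratin Krt24 at 1.93 ± 0.08, Dkk3 at 1.30 ± 0.06 and the BMP antagonist Grem1 at 1.17 ± 0.06 (limma adjusted p from 2.31e-08 to 7.11e-07). The list was written with results of these arrays known and is no independent evidence. Krt15, the keratin often used to mark the bulge, rose by only 0.20.

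Surface proteins of other epidermal compartments changed less than Cd34 or Cd200. Of 13 tested, 8 were higher, 0 lower and 5 not called, with a median of 0.225. Over all genes tested 45.2% were higher and 18.3% lower, with a median of 0.147. Median centring gave 11 higher and 0 lower, quantile normalization 6 and 1 (Itga6), and cyclic loess 5 and 2 (Itga6 and Cd44). P-cadherin (Cdh3) of the hair germ rose by 0.65 ± 0.08, the tetraspanin Cd81 by 0.48 ± 0.06, Cd24a by 0.46 ± 0.07 and the integrin chain Itgb4 by 0.44 ± 0.06 (limma adjusted p from 8.80e-05 to 4.51e-04). Lrig1, a marker of the junction above the bulge, rose by 0.27 and Plet1 by 0.23, calls that quantile normalization and cyclic loess ended. Of the CD200 receptors and the sialomucins of blood cells or endothelium, 3 genes were bright enough to test. Emcn of endothelium rose by 0.56 ± 0.06 and Spn of white blood cells fell by 0.59 ± 0.06. Podxl was not called (0.01 ± 0.09, limma adjusted p = 0.963). The 4 CD200 receptor genes on the array lay below the filter on dim genes.

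Markers of other cells moved with the same groups. T cell markers were lower in clock-positive cells in 8 of 8 tested, with list means from 7.20 to 7.22 against 8.09 to 8.17 in clock-negative arrays. Of 7 Langerhans and myeloid markers 6 were lower and 1 was higher (list means from 6.997 to 7.09 against 7.36 to 7.38). Endothelial markers were higher in 10 of 12, with list means from 8.22 to 8.24 against 7.87 to 7.92 and a largest change of 0.63 (Cdh5); 11, 9 and 7 of the 12 were called higher after median centring, quantile normalization and cyclic loess. Their part in the changes of Cd34, Cd200 and the Lgr genes was not tested. Krt5 and Krt14, shared by all basal cells, were at 0.01 and −0.09 and were not called, though cyclic loess called Krt14 lower. Of the 7 genes tested in the interfollicular basal list, 1 was higher (Col17a1), 0 were lower and 6 were not called. That list also holds the suprabasal keratins Krt1 and Krt10. Itga6, on the same list, was called lower after quantile normalization and cyclic loess.

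**Figure D3:**
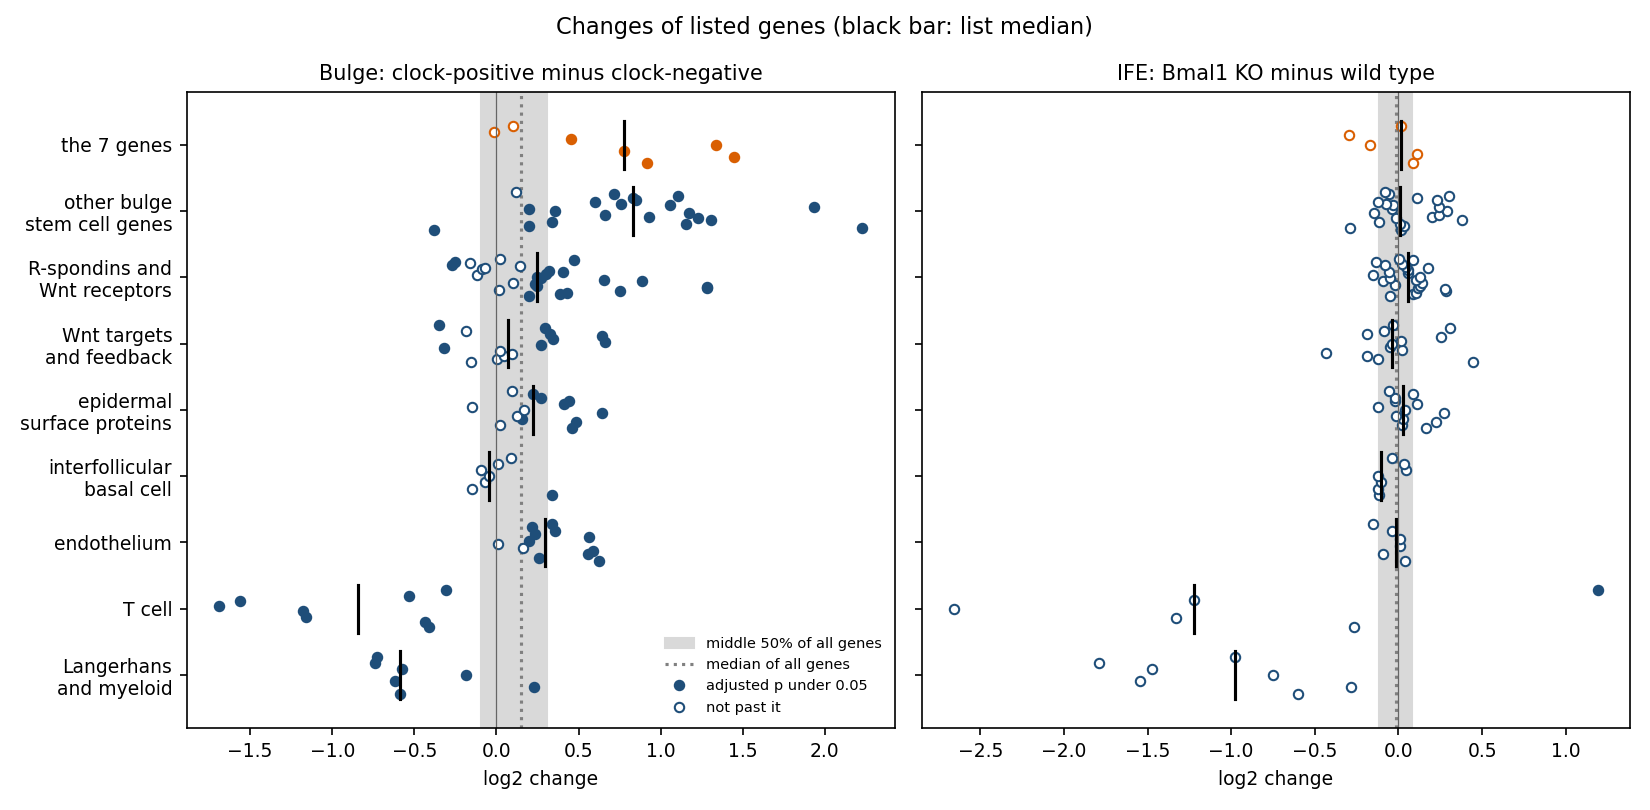
Log2 change (horizontal axis) of the 7 genes and of listed genes that were bright enough to test, for the bulge comparison (left) and the IFE comparison (right). Filled points passed an adjusted p under 0.05, black bars are list medians and the grey band is the interquartile range of all genes; in the bulge panel most bulge genes lie to the right of 0 (Aldh1a3 is an exception), all 8 T cell markers lie to the left, and so do 6 of 7 myeloid markers.

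The IFE comparison asks what the loss of Bmal1 changes in these genes. None of the 5 genes bright enough to test passed in limma: 0 of 5 at an adjusted p under 0.05 and 0 of 5 at an unadjusted p under 0.05. Of all 13956 genes tested, 0.193% passed the first and 7.96% the second. Genotypes did not overlap for 12.7% of all genes tested and for 0 of the 5. Cd34 and Lgr5 were at the 24.1st and 25.5th percentiles of genes by mean intensity and lay under the filter, which left out the lowest 30%.

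Cd34 was read at 6.48, 6.59 and 6.73 in wild-type arrays 1 to 3 and at 6.37, 6.54 and 6.57 in KO arrays 1 to 3. Lgr5 was read at 6.67, 6.60 and 6.61 against 6.56, 6.73 and 6.50. Both genes sat low on every IFE array and the genotypes overlapped. Fitted without the filter, Cd34 changed by −0.10 ± 0.10 (limma adjusted p = 0.942) and Lgr5 by −0.03 ± 0.10 (adjusted p = 0.985).

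Lgr6, a receptor that marks part of the interfollicular epidermis, was read at 9.14, 9.76 and 9.67 in wild-type arrays and at 9.37, 9.61 and 9.08 in KO arrays. Its change was −0.17 ± 0.20 (limma adjusted p = 0.938; 95% interval from −0.62 to 0.28). Lgr4 was read at 8.84, 8.72 and 8.84 against 9.25, 8.85 and 8.63, with a change of 0.11 ± 0.16 (adjusted p = 0.961; interval from −0.26 to 0.48). KO array 1 was the high value and the rest of the KO arrays lay around the wild type.

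Rnf43 had the largest shift of the 5, with 9.73, 10.17 and 10.11 in wild-type arrays and 9.89, 9.78 and 9.45 in KO arrays. It changed by −0.30 ± 0.16 (limma adjusted p = 0.765; interval from −0.67 to 0.08), and wild-type array 1 lay within the KO range. Znrf3 was read at 11.23, 11.43 and 11.27 against 11.44, 11.30 and 11.23, with a change of 0.01 ± 0.11 (adjusted p = 0.996; interval from −0.24 to 0.26). It was the steadiest of the 5 in these arrays.

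Cd200 was read at 7.64, 7.69 and 8.29 in wild-type arrays and at 8.44, 7.72 and 7.73 in KO arrays. Wild-type array 3 and KO array 1 stood above the others, so the spread within each genotype was wide and the change was 0.09 ± 0.24 (limma adjusted p = 0.985; interval from −0.47 to 0.64). The same arrays had the highest means of the 7 bulge markers, 9.75 and 9.88, against 9.56 to 9.65 in the other 4. The bulge transcription factor Lhx2 was at 8.10 and 8.12 on them and at most 7.79 elsewhere. On the same arrays the means of the hair germ list (8.72 and 8.77) and of the R-spondin and Wnt receptor list (8.95 and 9.04) were also highest. Cd34, dim in the IFE, was at 6.73 on wild-type array 3 and at 6.37 on KO array 1, its highest and lowest IFE values. Lgr5, also dim, was at 6.61 and 6.56 on them. The part of any of these genes in the Cd200 values was not tested. Without KO array 1 the Cd200 change was −0.15, and without wild-type array 3 it was 0.30, neither called.

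Genes around the receptors gave 0 calls in the IFE too, with 0 of 24 in the R-spondin and Wnt receptor list, 0 of 13 in the Wnt target list, 0 of 21 among other bulge genes and 0 of 13 among epidermal surface proteins. The lowest p in the Wnt target list belonged to Apcdd1, a Wnt inhibitor, at 0.44 ± 0.14 (limma adjusted p = 0.367), then Sox4 at 0.31 ± 0.12 and the cyclin Ccnd1 at −0.43 ± 0.19. In the other lists the lowest p went to Fzd1 (0.29), Fzd10 (0.28) and Fzd6 (0.14), to Angptl7 (−0.29), Dkk3 (0.38) and Tcf7l1 (0.30), and to Cdh3 (0.27), Cd24a (0.16) and Cd81 (0.23). Spn, at −0.13, was the 1 sialomucin gene bright enough to test here, and none of these passed. T cell and myeloid markers were spread widely in the wild type, with T cell list means of 7.88, 8.77 and 8.97 against 7.66 to 7.69 in the KO. Of 5 T cell markers tested, Thy1, which other cells also carry, was called higher in the KO (1.19 ± 0.12, limma adjusted p = 0.0155) and 4 were not called.

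**Figure D4:**
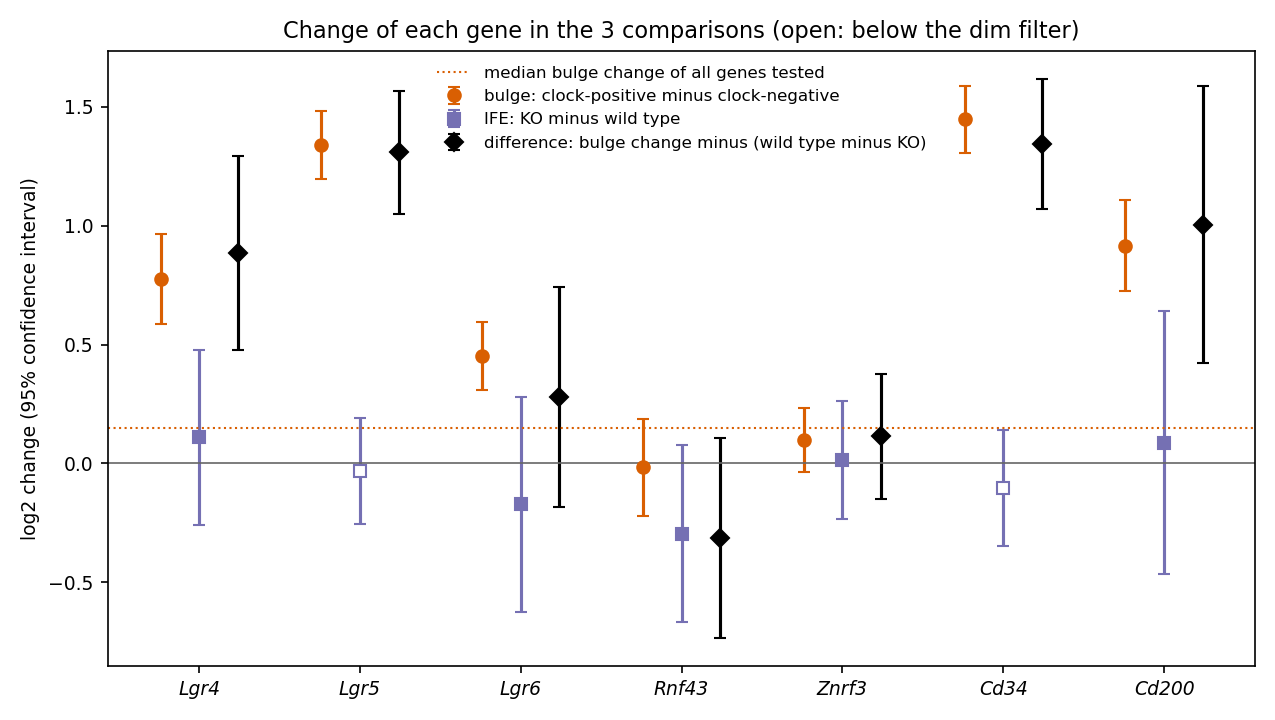
Log2 change with its 95% confidence interval (vertical axis) of each gene in the bulge comparison, the IFE comparison and the difference between them; open symbols lie below the filter on dim genes and the dotted line is the median bulge change of all genes. The bulge changes of Cd34, Lgr5, Cd200, Lgr4 and Lgr6 have intervals above 0, and all IFE intervals include 0.

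The bulge change and the change from KO to wild type were then compared directly, in 1 fit of all 12 arrays. The sets also differ in tissue, age, pool size and processing, which the fit cannot tell apart. In limma 4 of the 7 genes passed, all with the bulge change higher, against 17.4% of all genes tested in either direction and 10.9% in that one: Cd34 by 1.34 ± 0.13 (adjusted p = 3.47e-05), Lgr5 by 1.31 ± 0.12 (3.38e-05), Cd200 by 1.00 ± 0.27 (0.0245) and Lgr4 by 0.89 ± 0.19 (0.00785). Cd34 and Lgr5 entered this test through their bright bulge values. Cd200 lost its call after quantile normalization (adjusted p = 0.0565) and without any of 5 arrays. Those were clock-positive arrays 1 (0.0585), 2 (0.0510) and 3 (0.0513), clock-negative array 2 (0.0779) and wild-type array 2 (0.0518). Lgr6 (0.28 ± 0.22, adjusted p = 0.345), Rnf43 (−0.31 ± 0.20, 0.252) and Znrf3 (0.11 ± 0.12, 0.502) did not pass, so their changes in the 2 sets were not shown to differ. Rnf43 was called lower after quantile normalization (−0.48, adjusted p = 0.0362) and cyclic loess (−0.49, 0.0212).

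The pattern over arrays was compared across genes, with each set centred on its own mean and with Pearson's r as a description over 12 arrays. These points share the groups of the design, and a high r can repeat the bulge difference. Lgr5 and Cd34 were closest among the members (r = 0.982), then Lgr4 and Cd200 (r = 0.921), while Rnf43 had r from 0.0167 to 0.0938 with Lgr5, Cd34 and Lgr4. Over 13095 other genes, the 3 most like Cd34 were Ltbp2 (0.991), Angptl7 (0.987) and Igfbp6 (0.983), and those most like Lgr5 were Mmp2 (0.991), Gfra1 (0.990) and Angptl7 (0.989). Over the 6 IFE arrays alone, where Lgr5 was dim, r of those 3 with Lgr5 was only 0.372 to 0.517. Cd200 was followed by Exosc9 (0.994), 4931406C07Rik (0.982) and Pttg1ip (0.979), and Exosc9 kept an r of 0.996 with it over the 6 IFE arrays alone. Lgr4 was followed by Ankrd13c (0.987), Rlim (0.986) and Bud31 (0.984), and Lgr6 by Ezr (0.960), Tbc1d2 (0.957) and Adgra3 (0.945). Rnf43 was followed by Cpeb2 (0.952), Trir (0.950) and Ap5z1 (0.947). Znrf3 was followed by Ro60 (0.937), Spint2 (0.913) and Tarbp2 (0.913). An r of at least 0.9 was reached by 685 genes for Cd200, 608 for Lgr4, 291 for Lgr5, 249 for Cd34, 45 for Lgr6, 17 for Rnf43 and 6 for Znrf3.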

How the data were processed

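RNA of 12 samples of sorted mouse epidermal cells was read on 1-colour arrays, labelled with an Affymetrix kit. Per the labels' protocols, a whole transcriptome kit was used to amplify the RNA before labelling. The authors deposited log2 intensity values, which the submitters' processing notes credit to RMA; its version, settings and annotation are not given in the sources used here. Different probe sets are filled in the bulge and IFE columns, which appear to have been normalized separately. Precision is limited by the 3 arrays per group. Of the 12 columns, 0 held the values of another.

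Probe sets were named from the platform annotation: 21789 carry 1 symbol, 1621 several and 12102 none. Symbols with several probe sets (999) were read from the one measured on all 12 arrays, then the brightest. The lowest 30% of genes by mean over the arrays of a comparison were left out. The test was limma 3.58.1 in R 4.3.3, with lmFit, then eBayes with no trend, and p-values were adjusted over all 13956 genes by Benjamini and Hochberg. The fit was run on simulated data with planted changes and separate random noise for each gene. Those data held no shift of whole arrays, so they cannot show how such a shift moves the calls. Values after ± are standard errors. For pairs of genes they come from the spread of the within-array differences. The named genes are the 7 members, from each context list up to 4 genes with the smallest p in the bulge and 3 in the IFE comparison, and the 3 genes most like each member. Genes outside that rule (among them Lrp5, Lrp6, the R-spondins, Axin2, Krt15, Itga6, Lrig1, Plet1, Lhx2 and Cdh5) were named after their values were seen. The 7 members and all lists were chosen with earlier results of these data known. Promoter sequences are from RefSeq. The marker lists of melanocytes, hair germ, dermal fibroblasts and mast cells had 1 of 6, 3 of 5, 2 of 7 and 0 of 3 genes higher and 5, 1, 4 and 2 lower in clock-positive bulge cells, and 0 calls in the IFE. The alternatives were 2 other filters, 3 scalings, a trend, a joint fit, a replicate block, the mean of probe sets and leaving out each array.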

Additional observations from a re-analysis of the deposited data

Results flagged for a closer look

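For 4 genes the changes passed a comparison between the bulge (clock-positive less clock-negative) and the IFE (wild-type less KO), by a test of the difference in limma with n = 3 arrays per group. The difference was 0.89 for Lgr4 (adjusted p = 0.00785) and 1.00 for Cd200 (0.0245) on the log2 scale. Cd200 lost this call in 7 of 20 alternatives, with adjusted p up to 0.0985. For Cd34 and Lgr5 the difference was 1.34 and 1.31 (3.47e-05 and 3.38e-05). Each of the 3 clock-positive arrays lay above each clock-negative one for all 4 genes, while the IFE genotypes overlapped. Both were common: the first held for 50.1% of all genes tested in the bulge, and IFE genotypes were apart for only 12.7%. Cd34 and Lgr5 lay among the dim genes of the IFE arrays, at the 24.1st and 25.5th percentiles, and entered the test through their bright bulge values, so their differences mostly restate the bulge changes. Tissue, age, pool size and processing differ between the sets and cannot be told apart.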

How the results depend on the processing

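In the bulge comparison Cd34, Lgr5, Cd200, Lgr4 and Lgr6 were called higher under all 15 alternatives, the highest adjusted p being 0.0327 (Lgr6 with all 12 arrays in 1 fit). Rnf43 was called in 0 of 15 and Znrf3 in 1 of 15, after median centring. In the IFE comparison 0 members were called under any alternative. The replicate block changed no other call of a member than that of Cd200 in the difference between the sets (adjusted p = 0.0985). Same-numbered arrays did not deviate together in each pair (r from −0.061 to 0.26 in the bulge and from −0.525 to 0.0427 in the IFE). Arrays with different numbers had r from −0.325 to 0.126 in the bulge and from −0.312 to 0.538 in the IFE. Clock-positive arrays 1 and 2 correlated best with their own number (0.241 and 0.26), but not every array did. Deviations from a mean of 3 arrays are tied to each other, so these r cannot decide whether the numbers pair the arrays.

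Counts over all genes moved more, and the cause was not tested. Against 8866 genes called in the bulge, quantile normalization gave 5806, cyclic loess 5739 and the joint fit of 12 arrays 5301. The share of calls that were higher was 71.2%, and it was 53.0% without the filter on dim genes, 88.9% with the lowest 50% left out and 86.8% after median centring. With 1 array left out the count ran from 7132 to 9805. Against 27 called in the IFE, the count was 16 with no filter, 47 with the lowest 50% left out, 49 after quantile normalization, 85 after cyclic loess, 57 with a trend, 407 in the joint fit and 3 with the replicate block, with median centring at 18. With 1 array left out it ran from 7 to 98, over 1.5 times away for each of the 6: 98, 8 and 16 without wild-type arrays 1 to 3, and 16, 7 and 8 without KO arrays 1 to 3. Against 2422 called in the difference, the count was 1595 with the lowest 50% left out and 687 with the block, and ran from 1189 to 4208 with 1 array left out (1210, 1455 and 1265 without clock-positive arrays 1 to 3, 1189 and 1310 without clock-negative arrays 2 and 3, 1499 and 4208 without KO arrays 2 and 3). It split into 1518 higher and 904 lower, and into 2751 and 431 after median centring. Cd34 and Lgr5 were tested in the IFE only without the filter, so no other alternative gave them a value there. Their dim IFE signal limits what a fall could show.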
